A study of Mus musculus with 23 samples.

Results

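The genes described here encode the proteins of the cytosolic ribosome, measured in mouse colon during exposure to dextran sulfate sodium (DSS), a polymer that injures the colonic lining when it is added to drinking water. Members were taken by name: a probe set of the Affymetrix Mouse Genome 430 2.0 array belonged when its platform symbol began with Rpl or Rps and a digit, or was Rplp0, Rplp1, Rplp2 or Rpsa, and kinases of the Rps6k family and pseudogenes were left out. This gave 106 probe sets of 50 genes, out of 45037 probe sets other than controls. After a filter on dim probe sets, 92 of the 106 were kept and 48 of the 50 genes were tested among 12464 genes. Rpl39l and Rps16 each had 1 probe set with their symbol alone, which was too dim to be tested. Rplp1 had no probe set that carried its symbol alone. A further 110 probe sets listed a ribosomal protein symbol beside other symbols and were not members. Ribosomal protein genes measured only by such probe sets are therefore not covered by the gene counts. Of the 48 genes, 20 encode large-subunit (60S) proteins, 2 the stalk proteins Rplp0 and Rplp2, and 20 small-subunit (40S) proteins with Rpsa. The other 6 carry a matching name but are paralogs (Rpl22l1, Rpl3l, Rpl7l1, Rps27l, Rps4l) or, for Rps19bp1, a protein that binds Rps19.

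The mice were C57BL/6J, aged 12 to 14 weeks. Colon tissue, with no segment named, was taken from 5 untreated mice (day 0) and from separate cohorts of 6 mice each after 2, 4 or 6 days of 3% DSS. The labels number 1 mouse per array, so replicates are separate animals and none was followed over time.

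Every cytosolic ribosome carries one copy of nearly every core ribosomal protein, and the proteins are among the most heavily translated products of a growing cell. Their mRNAs typically begin with a 5' terminal oligopyrimidine (TOP) tract, a C followed by a run of C and T in the DNA sense. The growth-control kinase mTOR acts on such mRNAs mainly through their translation, which an array does not measure. The intestinal lining renews quickly and makes much protein, so its cells hold many ribosomes.

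Each array had been scaled to the same trimmed mean signal of 500. The array medians ran from 97.3 to 121.4. The 3'/5' ratio of the actin probe sets, a sign of RNA integrity, had a mean log2 of 0.43 at day 0 (highest 0.45), 0.46 at day 2, 0.61 at day 4 (lowest 0.53) and 0.51 at day 6 (lowest 0.48). That of Gapdh was -0.39 at day 0, -0.34 at day 2, -0.21 at day 4 and -0.24 at day 6. The actin ratio was thus higher on every array of days 4 and 6 than on any of day 0, and the part of RNA integrity in the results was not tested. The hybridization controls, spiked in equal amounts, declined with day: their mean log2 signal was 11.21 ± 0.08 at day 0 (SD, n = 5) and, on day 6, 10.66 ± 0.19 (SD, n = 6). In earlier results of these data 4 arrays stood apart by markers of neighbouring tissue. The summed signal of 10 skeletal muscle markers was 1552 in day 2 mouse 8 and 1517 in day 4 mouse 8, below the 7439 to 16248 of day 0. The summed signal of 4 pancreatic acinar markers was 106276 in day 2 mouse 6 and 29600 in day 6 mouse 1, against 8945 to 11572 at day 0. Further arrays lay outside the day 0 ranges and were not among the 4. The muscle sum was 3430 in day 6 mouse 4 and 68468 in day 6 mouse 21. Acinar sums on the day 6 arrays other than mouse 1 were 2596 to 8350. The fits without the 4 arrays keep these arrays. Colon epithelial markers were present on every array, with a summed signal over 11 genes of 138126 or more.

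Signals of ribosomal protein genes moved little during DSS exposure. None of the 48 passed the limma test (Benjamini-Hochberg adjusted p of 0.05 or less over all 12464 genes) at day 2 or day 4 against day 0. At day 6 the test passed 5 genes, all of them lower than at day 0: Rpl37, Rps27l, Rps7, Rps10 and Rpl11. The smallest change was that of Rps10, which fell by 8.28%, and the largest that of Rpl37, which fell by 20.7%. The genes that passed made up 10.4% of the 48, where 32.4% of all genes tested passed in the same comparison and 14.3% passed as lower. At an unadjusted p under 0.05, 1 member was found at day 2, 2 at day 4 and 12 at day 6 (25% of the 48), where the shares of all genes were 12.8%, 30.4% and 41.9%. The shares of all genes that passed after adjustment were 0.0802% at day 2 and 16.4% at day 4.

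The median member differed from day 0 by 0.01 (log2) at day 2, by -0.02 at day 4 and by -0.07 at day 6, where the medians over all genes tested were 0.01, 0.06 and 0.02. At day 6, 39 of 48 members had a fitted change below 0, against 47.2% of all genes. The other genes in the top 5% of mean signal had a day 6 median of -0.06, close to that of the members, and 60.4% of them lay below 0. The 36 members of that top 5% had a median of -0.08 with 33 below 0, and the 12 dimmer members a median of 0.04 with 6 below 0. Whether the members differ from other bright genes in this shift was not tested. Both subunits were below 0: 20 of 22 large-subunit and stalk genes lay below 0 with a median of -0.07, and 16 of 20 small-subunit genes with a median of -0.09. Since RNA came from bulk tissue, fewer cells of a type and less RNA per cell cannot be told apart. With the arrays centred on their medians in place of the scaled mean, the day 6 median was -0.16, and after quantile normalization it was -0.03.

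The count of 5 changed with single arrays and with the spike-in controls. It was 8 (1 higher, 7 lower) when day 0 mouse 1 was left out. It was 3 when mouse 3 of day 0, or mouse 4 or mouse 7 of day 6, was left out. With the hybridization controls as a covariate, no member passed at day 6 and the median member was at -0.03, while 998 of all genes passed against 4044 without it. These controls moved with day, and their part in the result was not tested. Without day 4 mouse 8, 1 member passed at day 4 (Rpl3l, described with the paralogs).

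**Figure D1:**
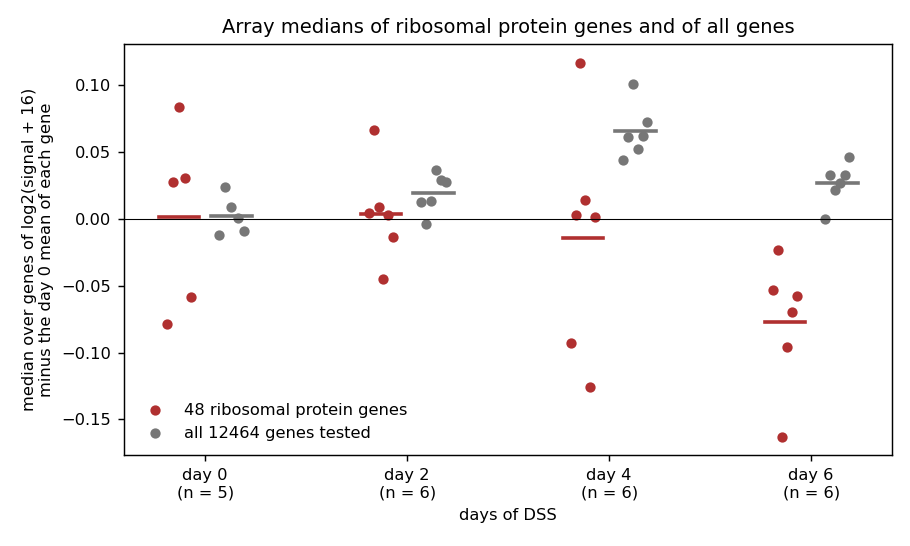
Median over genes of log2(signal + 16) minus each gene's day 0 mean, for every array (points), with the mean of each day (bars), for the 48 ribosomal protein genes (red) and all 12464 genes tested (grey). The ribosomal protein medians of the 6 day 6 arrays lie between -0.16 and -0.02, and those of day 0 between -0.08 and 0.08.

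Array by array, the median member lay between -0.08 and 0.08 at day 0, between -0.04 and 0.07 at day 2, between -0.13 and 0.12 at day 4 and between -0.16 and -0.02 at day 6. All 6 day 6 arrays were below 0, but their range overlapped that of day 0, in which mouse 1 and mouse 5 were also below 0. The widest spread was at day 4, from mouse 7 to mouse 4.

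Other cell types changed over the same days. All 4 tested neutrophil markers of 8 listed passed as higher at day 6, where 2261 of all 12464 genes did. The summed signal of these markers rose from 173 to 474 at day 0 to 2061 to 12470 at day 6. All 8 tested macrophage markers of 9 listed were higher too, with sums of 9708 to 14395 and 21036 to 40234. Of 10 squamous epithelial markers 3 passed as higher at day 6, and their sums rose from 8173 to 14576 at day 0 to 23736 to 52400 at day 6. Of 11 colon epithelial markers 2 passed as lower (18.2%), near the 14.3% of all genes. From day 4 to day 6, all 4 neutrophil and 7 of 8 macrophage markers passed as higher, where 9.09% of all genes did. In that comparison 5 of 9 markers of proliferating cells passed as higher too (median 0.46). Against day 0, 0 of those 9 passed at day 6 (median 0.09), after medians of -0.58 at day 2 and -0.38 at day 4. Their day 6 sums of 16413 to 18490 lay within the 12934 to 20302 of day 0. Smooth muscle markers passed as higher at day 4 for 5 of 8, where 1504 of all 12464 genes did. From day 4 to day 6 they passed as lower for 6 of 8 (median -0.43), where 13.7% of all genes did. No tested marker was at 0 on any array. The part of these cells in the ribosomal protein values was not tested.

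Intervals were narrow for most members. The 95% interval of the day 6 change lay within 1.2-fold of no change for 35 of the 48 genes, and for 15% of all genes tested. Within 1.5-fold lay 43 of 48 members and 61.4% of all genes. Of the other genes in the top 5% of mean signal, 36.9% lay within 1.2-fold and 81.1% within 1.5-fold. Of the 36 members in that top 5%, 35 lay within 1.2-fold and 36 within 1.5-fold. Of the 12 dimmer members, 0 lay within 1.2-fold and 7 within 1.5-fold. Most members were bright: 36 were among the 624 genes in the top 5% of mean signal. How signals this bright respond to RNA amounts was not tested. Among the 588 other genes of that top 5%, 45.7% passed at day 6, against 4 of the 36 members. Rpl38, a 60S protein, had a signal of 24942 ± 1157 at day 0 (SD, n = 5) and, on day 6, 24971 ± 934 (SD, n = 6). For Rps29, a 40S zinc-binding protein, the values were 31257 ± 1086 (SD, n = 5) and 31773 ± 710 (SD, n = 6). Both genes are exceptions in direction: they are among the 3 members of the top 5% with a day 6 change above 0. The other 33 of those 36 lay below 0.

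**Figure D2:**
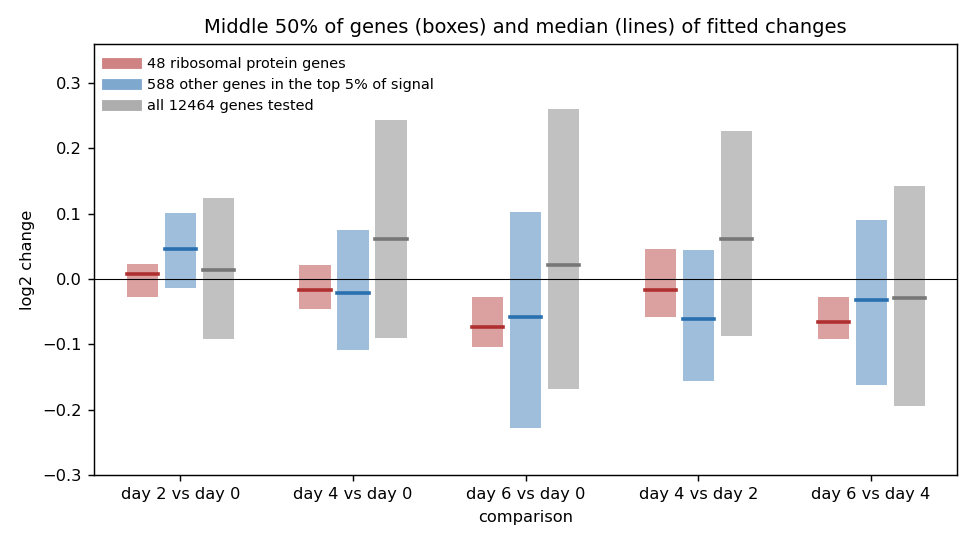
Fitted log2 changes in each of the 5 comparisons: boxes span the middle 50% of genes and lines mark the median, for the 48 ribosomal protein genes (red), the 588 other genes in the top 5% of signal (blue) and all 12464 genes (grey). At day 6 against day 0 the middle 50% of ribosomal protein genes spans -0.10 to -0.03, and that of all genes -0.17 to 0.26.

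Between DSS days few members passed. From day 2 to day 4 no member passed the test, where 13.5% of all genes did, and 4 members (8.33%) had an unadjusted p under 0.05, against 29.6% of all genes. From day 4 to day 6, 5 members passed, 1 higher and 4 lower, or 10.4% of the 48 against 22.8% of all genes. As lower passed 13.7% of all genes and as higher 9.09%. Those lower were Rpl37, Rps6, Rps7 and Rpl7, and the one higher was Rps25. The median member changed by -0.07 (log2) from day 4 to day 6, and the median gene by -0.03. The count of 5 was 3 without day 4 mouse 4 or without day 6 mouse 4. From day 2 to day 4, 1 member passed when mouse 1 of day 0, mouse 8 of day 2 or mouse 7 of day 4 was left out.

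**Figure D3:**
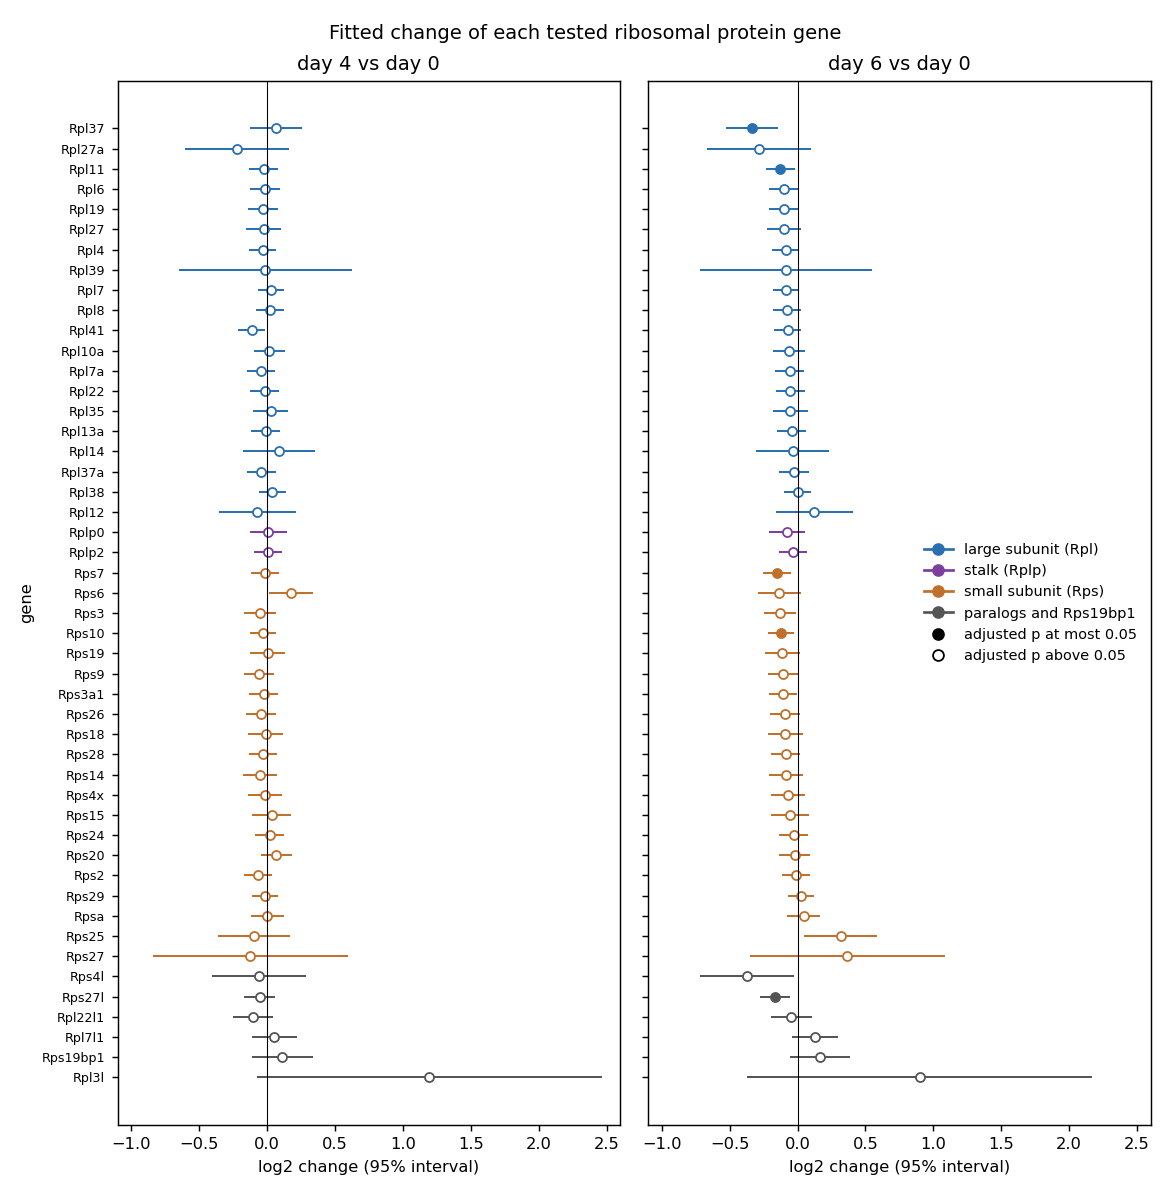
Fitted log2 change (points) with its 95% interval (lines) for the 48 tested genes at day 4 and day 6 against day 0, coloured by subunit. Filled points passed the test: none at day 4, and at day 6 Rpl37, Rpl11, Rps7, Rps10 and Rps27l. Most intervals are narrow, and the widest is that of the dim Rpl3l.

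Promoter sequences are shown for the core genes that passed a test and had 1 RefSeq start entry, with the stalk gene Rplp2 as a member that did not pass, so that the start of each transcript can be compared. Each line is 30 bases of the GRCm38.p6 build, 5′ to 3′ on the gene's strand, 15 before and 15 from the annotated start, and capitals mark an unbroken run of C and T that begins with C at the start. The genes and the motifs were chosen after the expression values were seen.
Rpl37: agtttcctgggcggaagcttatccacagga
Rpl11: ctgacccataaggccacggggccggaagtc
Rps7: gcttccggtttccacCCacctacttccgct
Rps10: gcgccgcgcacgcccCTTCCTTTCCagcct
Rps6: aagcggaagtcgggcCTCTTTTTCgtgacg
Rps25: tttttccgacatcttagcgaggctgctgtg
Rplp2: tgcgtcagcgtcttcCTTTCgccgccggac
The windows are at chr15:5116598-5116627 (plus strand) for Rpl37, chr4:136053379-136053408 (minus) for Rpl11, chr12:28635939-28635968 (minus) for Rps7, chr17:27635230-27635259 (minus) for Rps10, chr4:86857353-86857382 (minus) for Rps6, chr9:44407699-44407728 (plus) for Rps25 and chr7:141447636-141447665 (plus) for Rplp2. Rps10, Rps6 and Rplp2 carry a TOP-like run of at least 5 bases at the annotated start, and Rpl37, Rpl11, Rps7 and Rps25 do not. Both kinds include genes that passed as lower. Each window uses 1 annotated start, and the starts used in these samples were not measured. A gene without the run here may still have a TOP mRNA. RefSeq's table had no entry for Rpl7. It held promoter entries for 44 of the 50 member genes, 52 entries in all. A C at the annotated start followed by at least 4 C or T stood in 15.4% of the member entries and 2.51% of all 32851. Within 3 bases of the start it stood in 30.8% and 11.5%. CTTCCG on either strand, the core letters of sites for ETS-family factors, was found in 61.5% of the member entries over the 250 bases before and 50 after the start, and in 16.9% of all entries. TATAAA from 40 to 15 bases before the start was found in 1.92% and 1.99%.

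Rpl37, a zinc-binding protein of the 60S subunit, had the largest fall among the members that passed. Like Rps6 and Rps25, it is among the 12 members below the top 5% of mean signal. Its probe set (1438291_x_at) read 2263, 2571, 2634, 2652 and 2751 in the 5 day 0 mice. At day 2 the signal ran from 2338 to 3090 with a median of 2623, and at day 4 from 2253 to 3233 with a median of 2671. Day 6 was lower, from 1716 to 2371 with a median of 2068, and 5 of the 6 day 6 arrays lay below every day 0 array. The fitted change was -0.33 ± 0.09 (SE) against day 0, a fall by 20.7% (limma, adjusted p = 0.0056), and -0.40 ± 0.09 against day 4 (adjusted p = 0.0015), with 6 of 6 day 6 arrays below the mean of either day. The suffix of this probe set means that some of its probes can match other transcripts, so a near copy of Rpl37 could contribute to the reading. With the hybridization controls as a covariate, the change against day 0 was -0.25 and did not pass (adjusted p = 0.39), while the change against day 4 did (adjusted p = 0.0044).

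Rps7, a 40S protein with a part in ribosomal RNA maturation, was lower at day 6 against both day 0 and day 4. Its signals were 19003, 20226, 20688, 21249 and 21808 at day 0. They ran from 18867 to 22011 at day 4 (median 20653) and from 17524 to 19382 at day 6 (median 18546). The ranges of day 6 and day 0 overlapped at their edges, and 6 of 6 day 6 arrays lay below the day 0 mean. The change was -0.15 ± 0.05 (SE) against day 0 (adjusted p = 0.013) and -0.14 ± 0.04 against day 4 (adjusted p = 0.023). A second probe set for Rps7 (1435593_x_at), tested among all probe sets, gave -0.18 ± 0.05 against day 0 (adjusted p = 0.011). With the hybridization controls as a covariate the day 6 change was -0.04 (adjusted p = 0.85). The change against day 4 did not pass without day 4 mouse 4 (-0.12, adjusted p = 0.060) or day 6 mouse 4 (-0.12, adjusted p = 0.059).

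Rps27l, a paralog of the 40S protein Rps27 known as a p53 target, was the one member whose day 6 arrays all lay below all day 0 arrays; 6.64% of all genes tested had no such overlap in the same direction. Its signals were 8568, 8812, 8814, 8922 and 9271 at day 0. At day 6 they ran from 7400 to 8356 with a median of 7971. The change was -0.16 ± 0.05 (SE; adjusted p = 0.015). Its probe set (1435429_x_at) has a suffix of the same kind as that of Rpl37. Its other kept probe sets gave -0.19 (adjusted p = 0.068) and -0.10 (adjusted p = 0.16) in the test over all probe sets. With the hybridization controls as a covariate the change was -0.22 and did not pass.

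Rps10, a 40S protein of the beak region, read 20857, 21337, 21709, 22515 and 24094 at day 0 and 19536 to 21201 (median 20224) at day 6. The ranges overlapped, and the change was -0.12 ± 0.04 (SE; adjusted p = 0.028). Of its 6 probe sets 5 had a change below 0 at day 6, from -0.21 to -0.11, and 1 passed in the test over all probe sets. The change of Rps10 did not pass without day 0 mice 3 or 4 or day 6 mice 4, 7 or 21 (-0.12 to -0.09). The exception among its probe sets was the dim 1436384_at, at 156 ± 54 (SD, n = 5) and 161 ± 29 (SD, n = 6).

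Rpl11, a 60S protein that binds Mdm2 when ribosome assembly is disturbed, was the weakest call. It read 12742, 13046, 13761, 14210 and 14217 at day 0 and 11770 to 12904 (median 12493) at day 6, with overlap. The change was -0.13 ± 0.05 (SE; adjusted p = 0.046), and 6 of 6 day 6 arrays lay below the day 0 mean. It did not pass when any of 14 single arrays was left out, with a change of -0.13 to -0.11 in those fits: day 0 mice 2, 3 or 4, day 2 mice 1, 8 or 17, day 4 mice 1, 3, 6 or 8, and day 6 mice 1, 4, 7 or 29.

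Rps6, the 40S protein phosphorylated by S6 kinases, stood out for its fall from day 4 to day 6. Its signals were 1193, 1217, 1220, 1317 and 1355 at day 0 and 1151 to 1356 (median 1267) at day 2. Day 4 ran from 1310 to 1765 (median 1369) and day 6 from 1025 to 1241 (median 1163). All day 6 arrays therefore lay below all day 4 arrays, as in 4.5% of all genes tested. The change was -0.31 ± 0.07 (SE; adjusted p = 0.0029). Day 4 was not separable from day 0 (0.18 ± 0.07, adjusted p = 0.11), nor day 6 from day 0 (-0.13 ± 0.07, adjusted p = 0.18). Day 4 mouse 4 had the highest value, and without it the change from day 4 to day 6 was -0.25, which passed. Of the 2 Rps6 probe sets 1 was kept (1416142_at), with a mean of 1261 at day 0. How well this probe set reports the Rps6 mRNA was not tested.

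Rpl7, a 60S protein that binds nucleic acid, fell from day 4 to day 6 by a small margin. It read 17666, 18085, 18501, 18658 and 19192 at day 0. Day 4 ran from 17173 to 20478 (median 18795) and day 6 from 16490 to 18422 (median 17283). The ranges overlapped widely, and the change was -0.11 ± 0.04 (SE; adjusted p = 0.041). It did not pass when any of 8 single arrays was left out: day 4 mice 3, 4, 6 or 8, or day 6 mice 1, 4, 21 or 29 (-0.12 to -0.09). Some probes of its probe set can match other transcripts, as for Rpl37.

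Rps25, a 40S protein used by some viral internal ribosome entry sites, was the only member that passed as higher in the 5 comparisons of genes. Rps25 has 1 probe set here (1430978_at), dim for a core gene, with a mean of 483 at day 0. A mean of 1000 or more at day 0 was found in 39 of the 48 members. How well the Rps25 probe set reports its mRNA was not tested. It read 359, 438, 464, 515 and 641 at day 0 and 344 to 489 (median 377) at day 2. Day 4 ran from 367 to 528 (median 438) and day 6 from 505 to 721 (median 605). One day 6 array, mouse 3, fell within the day 4 range, as its 505 was below the 528 of day 4 mouse 4. The change from day 4 was 0.41 ± 0.12 (SE; adjusted p = 0.015), and against day 0 it was 0.32 ± 0.13 (adjusted p = 0.056). Against day 0 it passed without day 0 mouse 1 (0.42, adjusted p = 0.011), day 2 mouse 52 (0.32, adjusted p = 0.049) or day 6 mouse 3 (0.36, adjusted p = 0.035). Without the 4 arrays that stood apart the change from day 4 was 0.36 and did not pass.

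**Figure D4:**
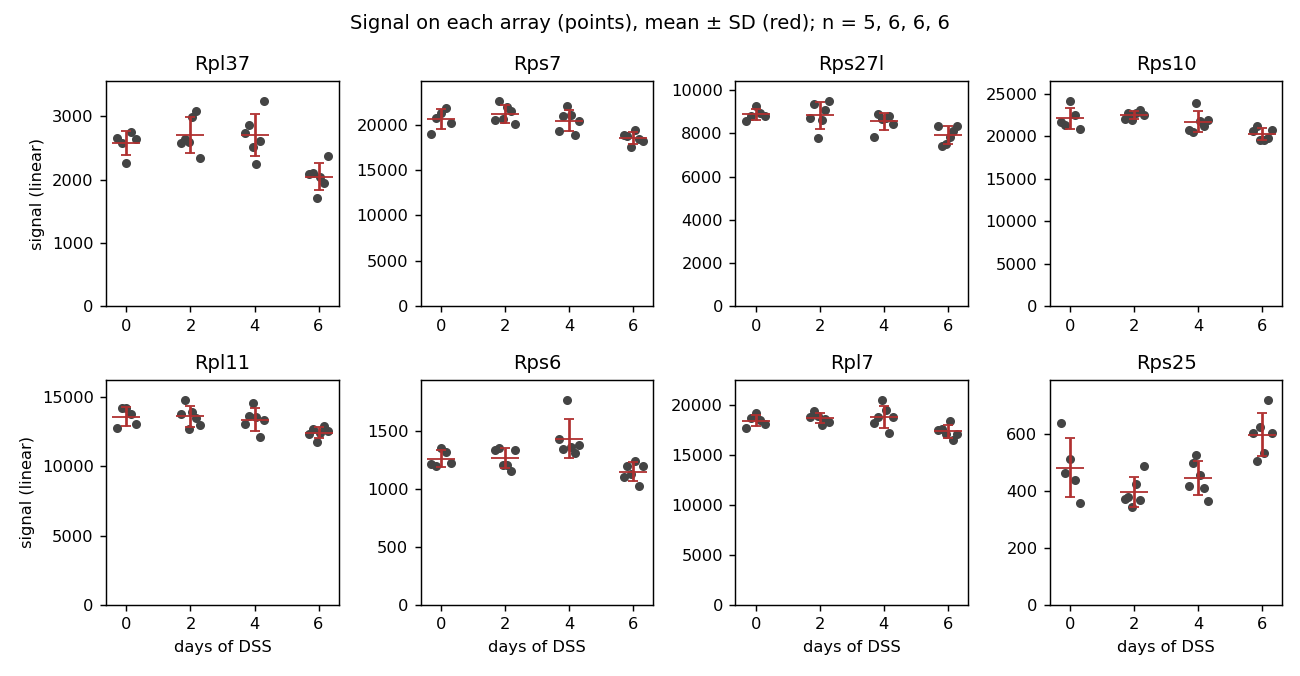
Linear signal on each array (points, 1 mouse each) with mean ± SD (red) over days of DSS, for the 8 ribosomal protein genes that passed in any comparison; n = 5 at day 0 and 6 on later days. All but Rps25 have their lowest mean at day 6, and Rps25 has its highest there.

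The stalk proteins Rplp0 and Rplp2, which sit at the binding site of elongation factors, passed in no comparison. Rplp0, often used as a reference gene, read 23465 ± 1375 (SD, n = 5) at day 0, 24690 ± 1760 at day 2, 23661 ± 1781 at day 4 and 22250 ± 1668 at day 6 (SD, n = 6 each), with an interval of -0.21 to 0.05 (log2) at day 6. Rplp2 read 23081 ± 845 at day 0 (SD, n = 5) and, on day 6, 22552 ± 1018 (SD, n = 6), with an interval of -0.13 to 0.06. Rpsa, a 40S protein also known as the laminin receptor, read 16572 ± 1026 (SD, n = 5) and 17076 ± 744 (SD, n = 6), a change of 0.04 ± 0.06 (SE; adjusted p = 0.57). After quantile normalization, Rpsa passed as higher at day 6 (0.12, adjusted p = 0.029), so that 1 member was higher and 3 lower in place of 0 and 5.

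The paralogs and Rps19bp1 had a median within-day SD of 0.14 (log2), against 0.08 for the 42 core genes. It was 0.22 for the 12 members below the top 5% of mean signal, core genes among them. The part of signal level in this difference was not tested. Rpl22l1, a paralog of Rpl22, read 9770 ± 642 at day 0 (SD, n = 5) and, on day 6, 9476 ± 714 (SD, n = 6), a difference of -0.04 ± 0.07 (SE; adjusted p = 0.65). Rpl7l1 read 1246 ± 107 (SD, n = 5) and 1366 ± 134 (SD, n = 6), a difference of 0.13 ± 0.08 (SE; adjusted p = 0.21). Neither difference exceeded what the spread between arrays allows. Rps4l read 886 ± 239 (SD, n = 5) and 663 ± 54 (SD, n = 6), a difference of -0.37 with an interval of -0.71 to -0.03 and an adjusted p of 0.088. It passed without day 0 mouse 4 (-0.50, adjusted p = 0.025) or day 2 mouse 52 (-0.37, adjusted p = 0.049). Rps19bp1 read 523 ± 44 (SD, n = 5) and 594 ± 102 (SD, n = 6; adjusted p = 0.23).

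Rpl3l, which replaces Rpl3 in heart and skeletal muscle, was the dimmest and most variable member tested. It read 24.2, 57.6, 62.9, 71.4 and 81.1 at day 0, 12.1 to 206 at day 2 (median 94.8), 11.9 to 377 at day 4 (median 179) and 26.5 to 359 at day 6 (median 94.9). No comparison passed: the day 4 difference was 1.19 ± 0.61 (SE; adjusted p = 0.19). Without day 4 mouse 8, or without the 4 arrays that stood apart, it was 1.71 and passed. The lowest values of days 2 and 4 came from mouse 8 of each day, the arrays with the lowest skeletal muscle sums (1552 and 1517). At day 6 the lowest came from mouse 4, whose sum of 3430 was the lowest of that day, and the highest from mouse 21, whose sum of 68468 was the highest. The part of muscle RNA in the Rpl3l values was not tested.

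Across single probe sets, 13 of the 92 kept member probe sets passed at day 6 against day 0, 1 higher and 12 lower, where 29.5% of all kept probe sets passed. From day 4 to day 6, 1 was higher and 8 lower, where 18.2% of all did. No gene had probe sets that passed in opposite directions within a comparison. Probe sets of 2 genes that had not passed are named here after their values were seen. For Rpl22, a 60S protein, probe set 1448398_s_at read 1930 ± 191 (SD, n = 5) at day 0, 2265 ± 138 at day 4 and 1640 ± 141 at day 6 (SD, n = 6 each). It passed as higher at day 4 (0.23, adjusted p = 0.029) and as lower at day 6 (-0.23, adjusted p = 0.019; background at day 4, 18.7%). Its brightest partner, 1453118_s_at, read 17741 ± 1118 (SD, n = 5) and 17089 ± 940 (SD, n = 6) and did not pass (adjusted p = 0.44), nor did the third (adjusted p = 0.49). For Rps9, a 40S protein, the dim 1426958_at rose from 223 ± 51 (SD, n = 5) to 323 ± 62 (SD, n = 6; adjusted p = 0.036), while the bright 1433689_s_at read 15637 ± 716 and 14530 ± 830 (adjusted p = 0.11). The probe sets of either gene thus differ in whether they passed, and that difference was not tested.

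The probe sets that list a ribosomal protein symbol beside other symbols were like the members in their counts. Of all 110, 103 list exactly 1 ribosomal protein symbol among their symbols. Of the 101 kept, 1 was higher and 12 were lower at day 6 against day 0, or 12.9% against 29.5% of all kept probe sets. A change below 0 was found in 89 of the 101, and in 12745 of all 24627 kept probe sets. The median of the 101 was -0.07.

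Genes that act with the ribosomal proteins were taken from lists chosen with earlier results of these data known. Fau, whose product is cleaved into a ubiquitin-like protein and the 40S protein Rps30, read 17410 ± 896 in untreated mice (SD, n = 5) and 15639 ± 876 on day 6 (SD, n = 6), a change of -0.15 ± 0.05 (SE; adjusted p = 0.022). Among 17 tested genes other than ribosomal proteins with TOP mRNAs, 2 were higher and 3 lower at day 6 and the median was -0.06. The share that passed, 29.4%, was near the 32.4% of all genes. The higher were Vim, a mesenchymal filament protein (0.74), and Nap1l1, a histone chaperone (0.31). The lower were the elongation factor subunit Eef1b2 (-0.19) and the initiation factor subunits Eif3h (-0.20) and Eif3k (-0.18). At day 4, 3 were higher and 0 lower, or 17.6% against 16.4% of all genes.

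Ribosome assembly factors had a median above 0 at day 6. Of 57 tested, 16 were higher and 2 lower, or 31.6% against 32.4% of all genes, and the median change was 0.19 where the median gene was at 0.02. Heatr1, a component of the small-subunit processome, rose from 595 ± 74 (SD, n = 5) to 961 ± 130 (SD, n = 6), a change of 0.68 ± 0.14 (SE; adjusted p = 5.0e-04). Rrp1b, a nucleolar factor (0.43, adjusted p = 0.018), and Bms1, a nucleolar GTPase (0.30, adjusted p = 7.4e-04), also rose. Sbds, which helps release Eif6 from the new 60S subunit, fell from 2881 ± 233 (SD, n = 5) to 2175 ± 187 (SD, n = 6), a change of -0.40 (adjusted p = 1.2e-04), and the other factor that fell was Imp3 (-0.20). At day 4, 1 was higher (Bms1, 0.35) and 1 lower (Sbds, -0.32), or 3.51% against 16.4% of all genes. The share that passed at day 6 was thus near the background, and the difference between assembly factors and ribosomal proteins was not tested.

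RNA polymerase I, which makes the ribosomal RNA precursor, had 2 genes higher and 1 lower of 15 at day 6, or 20% against 32.4% of all genes: Polr1e (0.57) and the initiation factor Rrn3 (0.32) rose and Polr1d (-0.18) fell. The median was 0.09. Of 28 translation factors, 5 rose and 3 fell, with a median of 0.10, and the 28.6% that passed were near the background of 32.4%. Eif3b rose by 0.37 and Eif1a by 0.44, while Eif3a fell by 0.31. Subunits of the same Eif3 complex therefore moved in both directions.

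Among 18 regulators of ribosome production, 1 rose and 5 fell at day 6, with a median of -0.15. The 33.3% that passed were at the background of 32.4%. Eif4ebp1, an mTOR target that holds back cap-dependent translation, rose from 817 ± 91 (SD, n = 5) to 1560 ± 323 (SD, n = 6), a change of 0.90 ± 0.13 (SE; adjusted p = 2.0e-05), and all day 6 arrays (1185 to 1997) lay above all day 0 arrays (755 to 973). Mxd4, a Max partner that opposes Myc, fell by 0.51 (adjusted p = 4.9e-04). Myc itself read 938 ± 220 (SD, n = 5) and 957 ± 170 (SD, n = 6) and did not pass at day 6 against day 0 (adjusted p = 0.89). The p53 target Cdkn1a fell by 0.88 at day 4 (adjusted p = 3.4e-04) and by 0.44 at day 6 (adjusted p = 0.017).

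Mitochondrial ribosomal proteins form a separate ribosome that translates the mitochondrial genome. Of 76 tested, 3 were higher and 14 lower at day 6, or 22.4% against 32.4% of all genes, and the median was -0.04. Mrpl9 fell from 1860 ± 76 (SD, n = 5) to 1331 ± 102 (SD, n = 6), by 0.48 (adjusted p = 2.3e-05), and Mrpl14 by 0.47 (adjusted p = 3.0e-04). The falls that passed ran from -0.48 to -0.21 there and from -0.33 to -0.12 among the cytosolic members, and this difference was not tested.

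**Figure D5:**
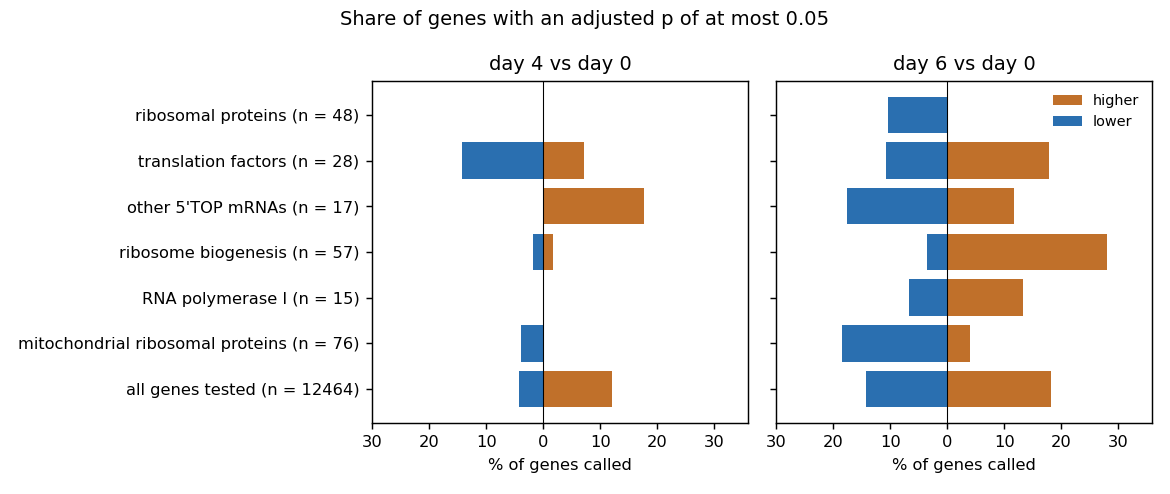
Percent of genes with an adjusted p of at most 0.05 at day 4 and day 6 against day 0, lower to the left (blue) and higher to the right (orange), for the cytosolic ribosomal proteins, 5 related lists and all genes tested. No ribosomal protein gene passed at day 4, and the 5 that passed at day 6 were all lower.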

How the data were processed

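The deposited table held 1 array per mouse (23 arrays), with intensity as linear MAS5 signal, per the submitters' processing notes; the authors' scaling target is not given in the sources used here, but the 2% trimmed mean was 500 on every array. Scan or extraction batches are not given, so batch and day cannot be told apart. Platform annotation gave 34957 probe sets with 1 symbol, 920 with several and 9160 with none; only the first were named. Probe sets above their array's median on at least 5 arrays were kept, the one with the highest mean log2 signal stood for its gene, and log2(signal + 16) was fitted for all 4 days with limma 3.58.1 in R 4.3.3 (lmFit, eBayes with trend), with Benjamini-Hochberg adjustment over 12464 genes and a threshold of 0.05. Fold changes are on that scale, which understates those of dim genes. The number of arrays limits the precision. The test was checked on simulated data with independent noise for each gene. The simulated shifts were larger than most member changes that passed, so the check does not cover changes that small.

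Named are, per comparison, up to 6 members that passed in each direction, the stalk genes, Rpsa, Rps6, Rps27a where tested, all paralogs, and from each other list up to 2 genes that passed per comparison; further genes are named after their values were seen. Members, lists and the arrays standing apart were chosen with earlier results of these data known. The fold limits of 1.2 and 1.5, the top 5% of signal, the motifs and the promoters shown were chosen after seeing the values. Alternatives were other pseudocounts (1, 64), filters, scalings, probe-set rules, covariates and arrays left out. Promoters are RefSeq's, GRCm38.p6.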

Additional observations from a re-analysis of the deposited data

Results flagged for a closer look

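Dixon's gap test was applied to the 16 named ribosomal protein genes and to the array medians, within each day, and 2 of 68 groups had an array far from the others; chance gives about 1 in 20. For Rpl22l1, day 2 mouse 52 read 10946, where the other 5 arrays of that day read 9148 to 9549. For Rps6, day 4 mouse 4 read 1765 (1764.71), where the other 5 read 1310 to 1430; without it the day 4 to day 6 fall was smaller, at -0.25, and still passed.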

How the results depend on the processing

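The day 6 median of the ribosomal protein genes stayed below 0 in every alternative run, from -0.16 (-0.159, median centring) to -0.03 (quantile normalization and the hybridization control covariate). The count of 5 genes at day 6 against day 0 became 3 with no filter, 13 over all probe sets, 1 with the replicate block, 0 with the hybridization control covariate and 3 with eBayes without trend. The count of 5 from day 4 to day 6 became 3 with no filter, 9 over all probe sets, 3 without _x_at and _s_at probe sets, 2 with the replicate block, 3 with the covariate, 3 without trend and 3 without the 4 arrays that stood apart. From 0, the day 4 count became 1 over all probe sets and 1 without the 4 arrays (Rpl3l), and the day 2 to day 4 count became 3 with quantile normalization, 2 over all probe sets, 1 without _x_at and _s_at probe sets and 1 without the 4 arrays; the median of that comparison was 0.060 with quantile normalization. The cause of these shifts was not tested.

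With 1 array left out, the counts ran from 0 to 0 (day 2), 0 to 1 (day 4), 3 to 8 (day 6), 0 to 1 (day 2 to day 4) and 3 to 7 (day 4 to day 6), and the medians from -0.017 to 0.027, -0.046 to 0.007, -0.097 to -0.050, -0.044 to 0.005 and -0.087 to -0.032. The arrays that moved a count by over 1.5 times, or from 0, were mice 1 and 3 of day 0 with mice 4 and 7 of day 6 (day 6), mouse 8 of day 4 (day 4), mouse 1 of day 0, mouse 8 of day 2 and mouse 7 of day 4 (day 2 to day 4), and mouse 4 of days 4 and 6 (day 4 to day 6). Without mouse 7 of day 4 that count was 7. Rpl37 and Rps6 passed from day 4 to day 6 in every alternative run for them. Rps10 did not pass at day 6 without day 0 mice 3 or 4 or day 6 mice 4, 7 or 21 (-0.12 to -0.09).

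Mouse numbers recur across days but name different animals. The 17 same-number pairs had a median correlation of 0.045, ran from -0.157 to 0.703, and 3 were over 0.1. Pairs with different numbers had a median of 0.0013. Of 17 arrays, 3 correlated best with their own number, so the block is a description only. Over all genes, median centring turned the day 6 split from 2261 higher of 4044 to 1556 of 3936. The hybridization control covariate follows day and left 998 of 4044 genes.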
